A study of Mus musculus with 6 samples.

Results

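The insulin-like growth factor (IGF) axis was described here by 9 genes of the 32371 in the count table: the ligands Igf1 and Igf2, the signalling receptor Igf1r, and the binding proteins Igfbp2, Igfbp3, Igfbp4, Igfbp5, Igfbp6 and Igfbp7. The genes were chosen by name, with earlier results of these data known, and each was found by its Ensembl identifier and symbol. The RNA-Seq had 2 groups of 3 libraries. The control mice had received AAV2-GFP, and the others AAV2-Ezh2-Y726D, a virus carrying a catalytically dead form of the histone methyltransferase Ezh2. All mice were adult C57BL/6J mice, which received the virus in the vitreous, an optic nerve crush (ONC) 2 weeks later and retinal dissociation 3 days after the crush. Both groups thus carried a virus and an injured nerve, and no library came from an uninjured or uninjected eye. Living cells positive for CD90.2, the surface protein encoded by Thy1, were sorted, and a stranded total RNA kit was used for the libraries. The promoter of the viral transgenes and the number of retinas in a library are not given in the sources used here. The comparison asks how the transcripts of the axis differed after ONC between retinal ganglion cell (RGC) preparations with the inactive Ezh2 and those with GFP.

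IGF-I and IGF-II are secreted peptides that bind the receptor tyrosine kinase IGF1R, which signals through insulin receptor substrates to PI3K, Akt and mTOR and through Ras to the MAP kinases. Most IGF in tissue is held by IGF-binding proteins, which limit or prolong its access to the receptor, and proteases that cut the binding proteins release it. In the eye, IGF-I is known as a survival and growth factor for RGCs, and several retinal cell types besides neurons make IGFs and IGFBPs. IGFBP7 differs from the other members in that it binds IGFs weakly and is found largely in vessel walls and matrix.

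The libraries held 9333244 to 23782520 counts, and the preparations labelled as RGCs held RNA of many retinal cell types. The rRNA gene CT010467.1 took 50.9% of GFP replicate 2 and 52.2% of GFP replicate 3, and 2.55% to 16.1% of each of the other 4 libraries. Without it, GFP replicates 2 and 3 kept 5745352 and 4460732 counts, so that a level of 1 CPM, the unit of counts scaled to a library's size with edgeR's TMM factors, stood for 7.75 and 6.03 counts, relative to 20.4 to 29.5 counts elsewhere. Ezh2 itself, which the virus supplies, was at 22.7, 23.9 and 26.4 CPM with GFP and at 65.2, 65.6 and 65.2 CPM with Ezh2-Y726D, so that every library had the level its label called for. The RGC markers Rbpms, Pou4f1 and Pou4f2 were all present, but the summed level of 8 Müller glia markers, 7500 to 7832 CPM with GFP and 7501 to 7755 CPM with Ezh2-Y726D, was above that of 12 RGC markers, 539 to 551 and 515 to 554 CPM. Nothing in the labels says that the 3 libraries of a group came from separate mice, so p-values measure the spread between these samples, which may be technical.

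Of the 9 genes, 8 passed the filter on low counts and were tested. Igf1 was higher with Ezh2-Y726D, Igfbp7 and Igfbp3 were lower, and Igf2, Igf1r, Igfbp2, Igfbp4 and Igfbp5 did not pass the test. Igfbp6 had 3 to 12 counts per library and was not tested. Among all 18138 genes tested with edgeR's quasi-likelihood test, 13.9% were higher and 13.6% were lower at an adjusted p under 0.05, or 27.5% in either direction, so that 3 of 8 members stand near the background. None of the members was a differentially expressed gene (DEG) by the thresholds of the study, which also ask for a change of more than 1.5-fold, relative to 8.02% of all genes. The count of DEGs was also 0 with DESeq2 and 0 for edgeR at an unadjusted p under 0.05 with that fold change. At an adjusted p under 0.05 without a fold change, 1 member passed with DESeq2, and 1 to 3 passed with edgeR when 1 library was left out. The median log2 fold change of the 8 tested members was 0.02, relative to 0.0 over all genes. In Igf1 and Igfbp7 the libraries of the groups did not overlap, which held for 38.6% of all genes. In these bulk samples, fewer cells of a type and less RNA per cell cannot be told apart.

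**Figure D1:**
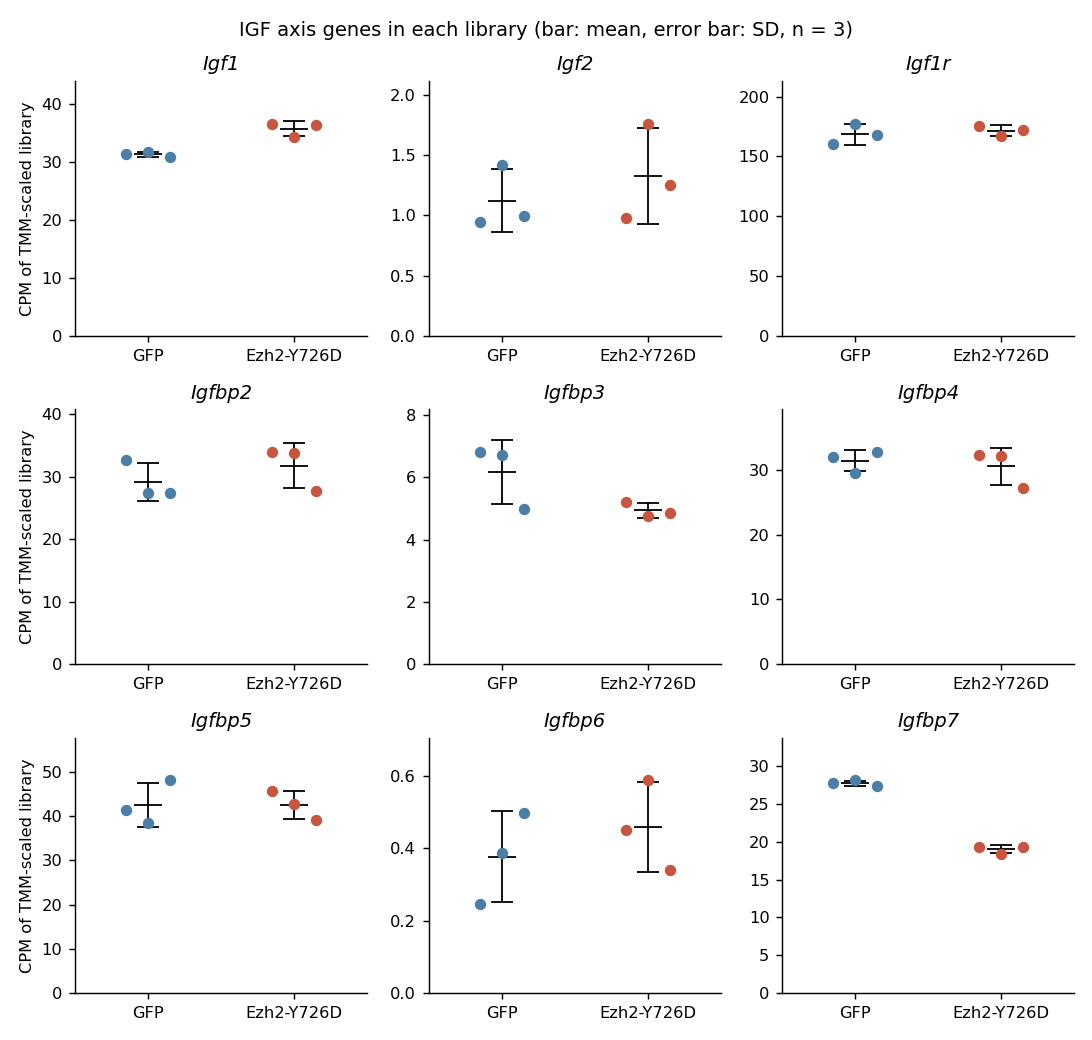
Level of each of the 9 IGF axis genes in CPM of the TMM-scaled library (vertical axes from 0, a separate scale for each gene) in 3 GFP and 3 Ezh2-Y726D libraries. Points are libraries, the bar is the mean and the error bar the SD (n = 3). The groups are apart in Igf1 and Igfbp7, and 1 of the GFP libraries of Igfbp3, at 4.98 CPM, sits among the Ezh2-Y726D libraries.

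The bases just before the transcription start are shown for 3 binding proteins, Igfbp3 and Igfbp7, which fell, and Igfbp4, which did not pass the test, since the density of CG dinucleotides near a promoter is a feature that Polycomb targets are known for. The sequences are the 250 bases upstream of the RefSeq start on GRCm38.p6, written on the gene's own strand, with each CG in capitals. They lie at chr11:7213924-7214173 on the minus strand for Igfbp3, at chr11:99040994-99041243 on the plus strand for Igfbp4 and at chr5:77408046-77408295 on the minus strand for Igfbp7.
Igfbp3: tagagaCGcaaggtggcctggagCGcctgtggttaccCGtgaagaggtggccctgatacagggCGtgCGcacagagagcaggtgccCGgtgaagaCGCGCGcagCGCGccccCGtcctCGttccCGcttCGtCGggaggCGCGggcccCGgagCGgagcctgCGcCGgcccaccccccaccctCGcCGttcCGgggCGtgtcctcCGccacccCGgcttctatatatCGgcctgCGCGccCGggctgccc
Igfbp4: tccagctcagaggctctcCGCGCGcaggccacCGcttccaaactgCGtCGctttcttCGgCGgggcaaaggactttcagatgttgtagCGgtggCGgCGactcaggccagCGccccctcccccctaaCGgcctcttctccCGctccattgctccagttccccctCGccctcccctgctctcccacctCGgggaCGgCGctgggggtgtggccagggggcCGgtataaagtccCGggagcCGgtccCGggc
Igfbp7: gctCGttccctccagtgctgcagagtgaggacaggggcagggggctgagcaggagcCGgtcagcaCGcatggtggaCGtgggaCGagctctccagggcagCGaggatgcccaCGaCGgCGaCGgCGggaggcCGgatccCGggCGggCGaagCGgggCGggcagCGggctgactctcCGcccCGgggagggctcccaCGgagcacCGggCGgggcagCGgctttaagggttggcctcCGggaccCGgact

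These windows held 32 CG dinucleotides in Igfbp3, 22 in Igfbp4 and 26 in Igfbp7, relative to a median of 6 over 32841 RefSeq windows of the same length. As many as in Igfbp3 were found in 4.59% of all windows, as many as in Igfbp4 in 14.8% and as many as in Igfbp7 in 9.59%. The window of Igf1, the member that rose, had 5, and that of Igf1r, which did not pass the test, had 42, a number reached by 0.865% of windows. Windows rich in CG were thus found both among members that passed the test and among those that did not. The letters GGGCGG, known as the GC box, were searched on both strands and occur 4 times in the Igfbp7 window, 3 times in one of Igfbp2, 2 times in that of Igf1r and in 2 windows of Igf2, and 32.7% of all windows hold them. The letters TATAAA occur in the windows of Igfbp4 and Igfbp6 and in 12.4% of all windows. Neither was found in the window of Igfbp3. The CCAAT letters were found in the windows of Igf1 and Igfbp6, in 1 of Igf2 and in 33.9% of all windows. All 9 genes had at least 1 window, and 13 in all, as Igf2 had 4 and Igfbp2 had 2.

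Igf1, the ligand that activates IGF1R, lies at chr10:87858265-87937042 on GRCm38. It was at 31.4, 31.7 and 30.8 CPM in GFP replicates 1, 2 and 3, and at 36.6, 34.2 and 36.4 CPM in those of Ezh2-Y726D. Every Ezh2-Y726D library was above every GFP library. The mean was 31.3 ± 0.448 CPM with GFP and 35.7 ± 1.35 CPM with Ezh2-Y726D (SD, n = 3 each). The log2 fold change was 0.19 with a standard error (SE) of 0.060 and an adjusted p of 0.0186 by edgeR, a rise of 1.14-fold with a 95% confidence interval of 1.05- to 1.24-fold. This call rested on few libraries and on the tool. Without Ezh2-Y726D replicate 1 or 3, or GFP replicate 1, the adjusted p was 0.05, 0.0725 and 0.0942, with log2 fold changes of 0.17, 0.17 and 0.19. Without both GFP libraries rich in rRNA it was 0.0714, and with DESeq2 0.101.

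Igf2, the second ligand, which is largely silenced after birth in most tissues, was near the floor of detection. It had 27, 11 and 6 counts in the GFP libraries and 26, 36 and 37 in those of Ezh2-Y726D. The CPM were 0.947, 1.42 and 0.995 with GFP and 0.977, 1.76 and 1.25 with Ezh2-Y726D, and the groups overlapped. The log2 fold change was 0.30 ± 0.30 (SE), with an adjusted p of 0.52 by edgeR and a 95% interval of -0.31 to 0.92. At this depth, neither a small fall nor a rise could be told from no change. Of the exonic bases of Igf2, at chr7:142650766-142666816, 64.5% are shared with Gm49394 and with Igf2os on the opposite strand. Its counts are uncertain, as the strand setting of the counting is not given in the sources used here.

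Igf1r, the receptor of both ligands, was the member measured with the highest counts, 1014 to 5078 per library. It was at 160.1, 177.5 and 168.2 CPM with GFP and at 175.7, 167.1 and 172.1 CPM with Ezh2-Y726D. The groups overlapped over most of their range. The log2 fold change was 0.04 ± 0.042 (SE), with an adjusted p of 0.61 by edgeR. The 95% interval of 0.965- to 1.09-fold bounds the change of this transcript in either direction. The gene lies at chr7:67952827-68233668.

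Among the binding proteins, Igfbp7 and Igfbp3 fell and none of the 5 tested rose, where 13.6% of all genes were lower and 13.9% higher, and the call of Igfbp3 was lost in 4 of the 6 fits with 1 library left out. Igfbp7, also known as angiomodulin, had the lowest adjusted p of all members. Its level with GFP was 27.7, 28.1 and 27.4 CPM, and with Ezh2-Y726D it was 19.3, 18.4 and 19.3 CPM. The 3 values of a group lay within 1 CPM of each other, and the groups were far apart. The mean with Ezh2-Y726D was 0.684 of the GFP mean of 27.7 CPM, with an SD of 0.522 CPM and 0.376 CPM (n = 3 each). Igfbp7 fell by 0.55 on the log2 scale, with an SE of 0.067 and an adjusted p of 2.24e-07 by edgeR. It was 1.46-fold lower, just short of the fold change of a DEG, and its 95% interval of 0.623 to 0.753 of the GFP level reaches past it. With any 1 library left out, the log2 fold change stayed between -0.56 and -0.53 and the adjusted p at 1.8e-05 or under. Without both GFP libraries rich in rRNA, it was -0.54 with an adjusted p of 5.82e-06. The gene lies at chr5:77349240-77408041, and 7.0% of its exonic bases overlap Polr2b on the opposite strand.

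Igfbp3, the main carrier of IGF in blood, had 30 to 194 counts per library. It was at 6.81, 6.71 and 4.98 CPM with GFP and at 5.22, 4.75 and 4.85 CPM with Ezh2-Y726D. GFP replicates 1 and 2 were above all Ezh2-Y726D libraries, and GFP replicate 3 lay among them. Igfbp3 fell by 0.38 on the log2 scale, with an SE of 0.13, a 95% interval of -0.66 to -0.11 and an adjusted p of 0.034 by edgeR. The SD of its GFP libraries, 1.03 CPM around a mean of 6.16 CPM, was close to the difference from the Ezh2-Y726D mean of 4.94 ± 0.249 CPM. In the fits that lost the call, the adjusted p was 0.379 without GFP replicate 1, where the log2 fold change was -0.26, and 0.0673, 0.0875 and 0.0986 without GFP replicate 2 and Ezh2-Y726D replicates 2 and 3. With DESeq2 the adjusted p was 0.261. Without both GFP libraries rich in rRNA, by contrast, the log2 fold change was -0.46 with an adjusted p of 0.0214. Igfbp3 lies at chr11:7206086-7213923.

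Igfbp2, Igfbp4 and Igfbp5 did not pass the test, and their groups overlapped. Igfbp2, a binding protein abundant in nervous tissue, was at 32.7, 27.5 and 27.5 CPM with GFP and at 34.0, 33.8 and 27.7 CPM with Ezh2-Y726D. Its log2 fold change was 0.06, with a 95% interval of 0.933- to 1.17-fold. Igfbp4, which inhibits IGF until it is cut, was at 31.9, 29.5 and 32.7 CPM with GFP and at 32.2, 32.1 and 27.2 CPM with Ezh2-Y726D. In both genes 1 library of the Ezh2-Y726D group, replicate 3, was lower than the other two. The interval of Igfbp4 was 0.872- to 1.07-fold. Igfbp5, which binds matrix as well as IGF, was at 41.3, 38.4 and 48.1 CPM with GFP and at 45.6, 42.7 and 39.2 CPM with Ezh2-Y726D, with an interval of 0.916- to 1.11-fold. The adjusted p-values by edgeR were 0.629, 0.649 and 0.922 for Igfbp2, Igfbp4 and Igfbp5. Igfbp2, at chr1:72824503-72852474, and Igfbp5, at chr1:72857932-72874884, are neighbours that lie tail to tail on opposite strands, and Igfbp4 lies at chr11:99041244-99054392.

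Igfbp6, which prefers IGF-II, lies at chr15:102144362-102149511 and was hardly detected. It had 7, 3 and 3 counts in the GFP libraries and 12, 12 and 10 in those of Ezh2-Y726D, or 0.246, 0.387 and 0.498 CPM relative to 0.451, 0.588 and 0.339 CPM. The values overlapped once scaled for depth, and the counts are too few to show a difference.

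**Figure D2:**
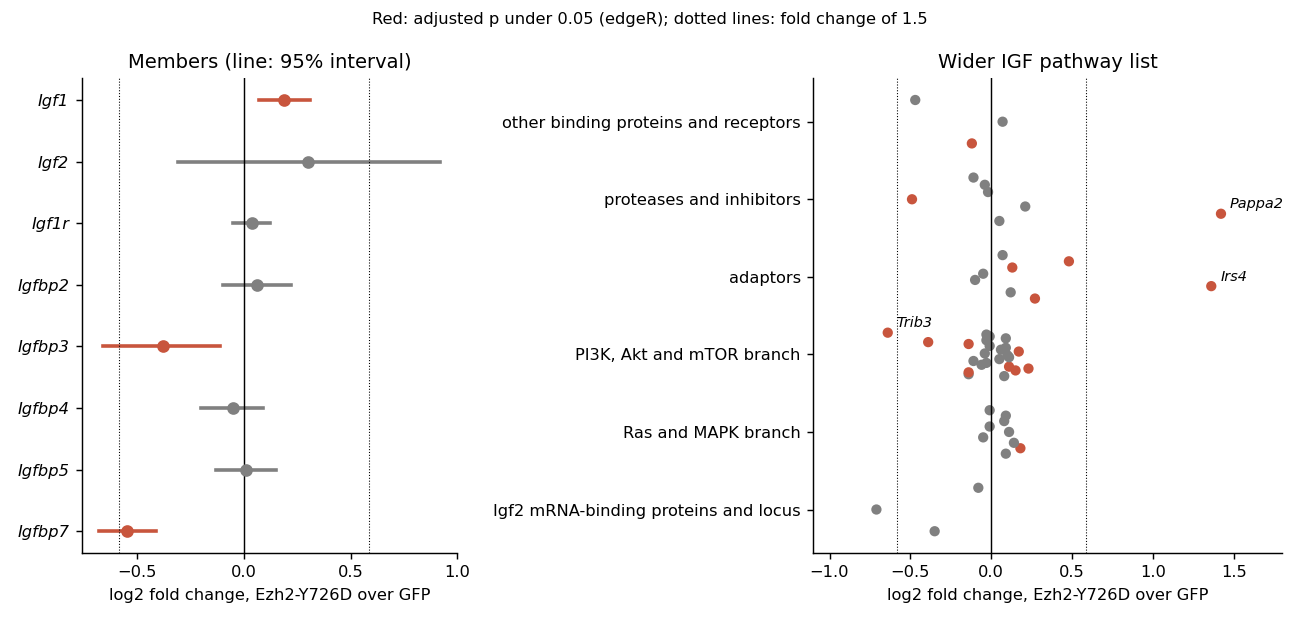
Log2 fold change of Ezh2-Y726D over GFP (horizontal axes, edgeR) for the 8 members tested, with 95% intervals, on the left, and for the 54 tested genes of a wider IGF pathway list by role on the right. Red points had an adjusted p under 0.05 and dotted lines mark a fold change of 1.5. Among the members the red points are Igf1, Igfbp3 and Igfbp7, and the named points past a dotted line on the right are Pappa2, Irs4 and Trib3.

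To compare levels between the genes, CPM were divided by the kilobases (kb) of exon in GENCODE vM21. Over all 6 libraries, Igfbp7 had the highest mean level with 19.3 CPM per kb (range 15.2 to 23.3), followed by Igfbp2 with 16.5 (14.9 to 18.4). These 2 ranges overlapped, and the order of their means differed between the groups. With GFP, Igfbp7 was at 22.9 ± 0.311 and Igfbp2 at 15.8 ± 1.61 CPM per kb (SD, n = 3), whereas with Ezh2-Y726D Igfbp7 was at 15.7 ± 0.432 and Igfbp2 at 17.2 ± 1.96. In Ezh2-Y726D replicate 3 the order was that of the GFP libraries, with Igfbp7 at 35.1% and Igfbp2 at 32.9% of the summed IGFBP level. Igf1r came next with 10.1 CPM per kb (9.53 to 10.6), and then Igfbp5 with 7.09 and Igfbp4 with 7.0, which overlapped each other. Igf1 was at 3.38 CPM per kb (3.11 to 3.69), under its receptor in every library, and Igfbp3 was at 1.77 (1.52 to 2.17). Igfbp6 with 0.376 and Igf2 with 0.214 CPM per kb overlapped at the lower end. The level per kb depends on the annotated exons, which may include isoforms not used in these cells.

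The IGFBP transcripts were then taken as a pool. Their summed level was 57.1, 53.7 and 55.0 CPM per kb with GFP and 51.3, 49.9 and 45.5 CPM per kb with Ezh2-Y726D. All Ezh2-Y726D libraries were under all GFP libraries, with means of 55.3 ± 1.73 and 48.9 ± 3.06 CPM per kb (SD, n = 3 each). This separation was lost without division by exon length, where the sums were 140.7, 130.7 and 141.1 CPM with GFP and 136.7, 132.3 and 118.5 CPM with Ezh2-Y726D. Without Igfbp7, the sum was 32.3 ± 1.87 CPM per kb with GFP and 33.2 ± 3.21 with Ezh2-Y726D (SD, n = 3 each), and the groups overlapped. The share of Igfbp7 in the pool was 40.2%, 43.3% and 41.2% with GFP and 31.1%, 30.4% and 35.1% with Ezh2-Y726D, while that of Igfbp2 was 28.6% ± 2.07 and 35.2% ± 1.97. Shares are parts of a whole, so a smaller share of Igfbp7 by itself leaves larger shares for the others. The share of Igfbp2 per kb was higher in every Ezh2-Y726D library than in the GFP libraries, although the gene did not pass the test. For Igfbp4, which did not pass either, GFP replicate 3 and Ezh2-Y726D replicate 3 were both at 13.5% after rounding. Without division by length the shares of Igfbp4 overlapped. Igfbp4 took 12.9% ± 0.531 and 14.1% ± 0.507 of the pool, and Igfbp3 3.56% ± 0.588 and 3.23% ± 0.183. No p is given for these shares, which are a description only. The members had been chosen with earlier results of these data known, a limit that also holds for the p-values of single members.

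**Figure D3:**
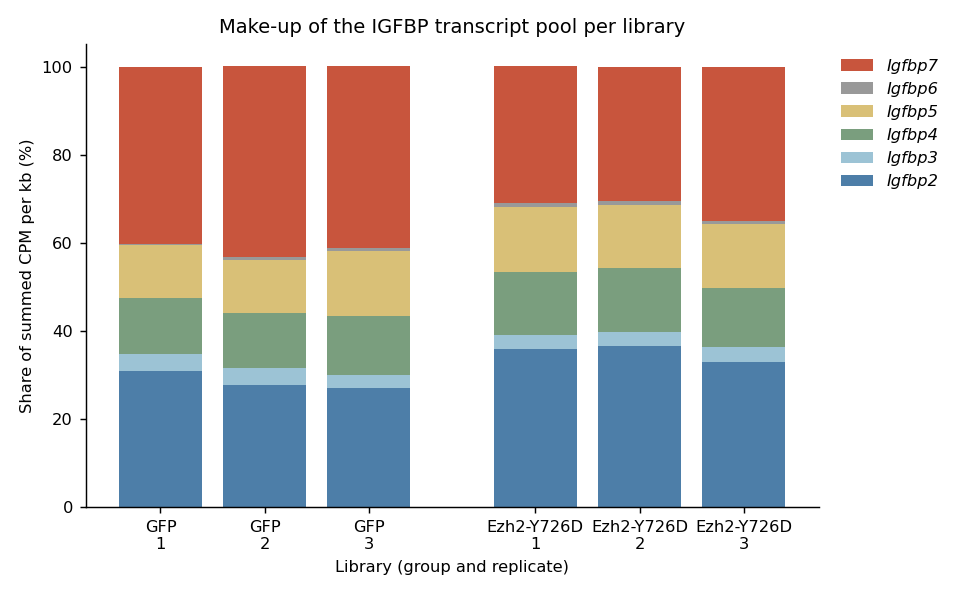
Share of each of 6 binding protein genes in the summed IGFBP level (vertical axis, percent of CPM per kb) in each of the 6 libraries (horizontal axis, group and replicate). The top segment, Igfbp7, takes 40.2% to 43.3% in the GFP libraries and 30.4% to 35.1% in the Ezh2-Y726D libraries, and the bottom segment is Igfbp2.

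The proteases that release IGF from its binding proteins, and the stanniocalcins that block these proteases, were among 58 further genes of the pathway. Of these 58, 54 were tested, 10 were higher and 6 lower with Ezh2-Y726D, and 3 were DEGs, where 8.02% of all genes were. As a share of those tested, the calls in either direction were again near the 27.5% of all genes, and the median log2 fold change of the list was 0.02. Pappa2, a metalloprotease that cuts IGFBP3 and IGFBP5, had the lowest adjusted p. It was at 4.88, 4.39 and 4.64 CPM with GFP and at 13.1, 12.4 and 12.7 CPM with Ezh2-Y726D. The lowest Ezh2-Y726D library was far above the highest GFP library. The log2 fold change was 1.42 ± 0.11 (SE), or 2.68-fold, with an adjusted p of 6.51e-11 by edgeR, and it was between 1.4 and 1.5 with any 1 library left out. Its paralog Pappa, which cuts IGFBP4, was at 9.78 ± 0.547 CPM with GFP and 9.95 ± 0.186 CPM with Ezh2-Y726D, with an adjusted p of 0.755.

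Stc2, an inhibitor of both proteases that was singled out after its values were seen, fell by 0.49 on the log2 scale, with an SE of 0.14 and an adjusted p of 0.00859 by edgeR. It was at 6.21, 5.68 and 6.47 CPM with GFP and at 3.83, 4.90 and 4.47 CPM with Ezh2-Y726D, without overlap. The call was lost without GFP replicate 1, where the adjusted p was 0.0952, with DESeq2, where it was 0.0946, and after thinning to the shallowest library, where it was 0.316 with a log2 fold change of -0.33. Stc1, its paralog, was at 13.1 ± 2.18 and 15.4 ± 0.629 CPM, with an adjusted p of 0.0891. Htra1, Adam12 and Ide, the other proteases of the list, did not pass the test, with log2 fold changes of -0.02, -0.04 and -0.11.

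**Figure D4:**
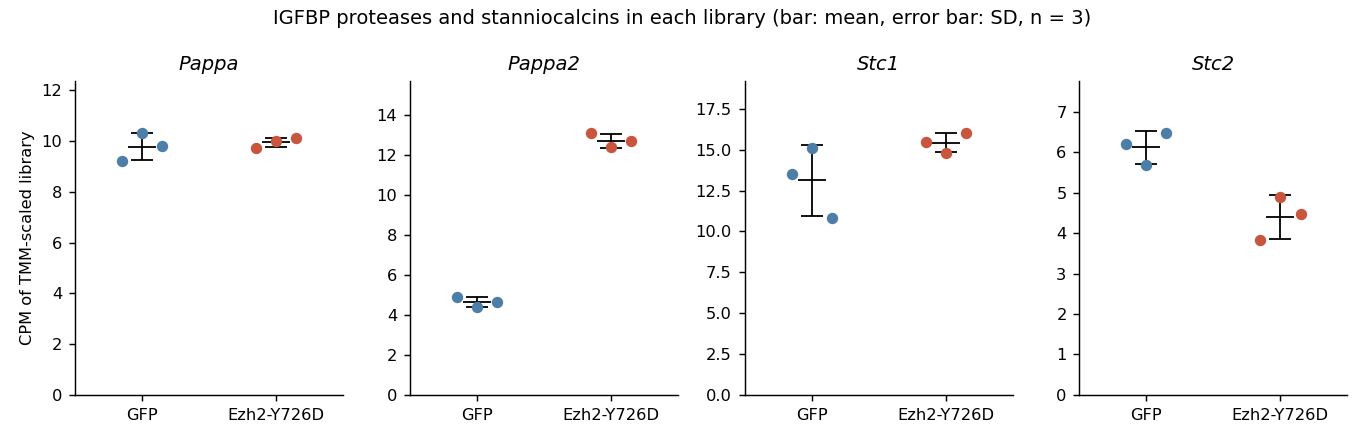
Level of the IGFBP proteases Pappa and Pappa2 and of their inhibitors Stc1 and Stc2 in CPM of the TMM-scaled library (vertical axes from 0, a separate scale for each gene) in 3 GFP and 3 Ezh2-Y726D libraries. Points are libraries, the bar is the mean and the error bar the SD (n = 3). Pappa2 is between 4.39 and 4.88 CPM with GFP and between 12.4 and 13.1 CPM with Ezh2-Y726D, and Stc2 is lower with Ezh2-Y726D in all libraries.

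Of the other receptors and binding proteins, Igf2r, which clears IGF-II and carries lysosomal enzymes, was at 90.7 ± 0.633 CPM with GFP and 83.3 ± 2.54 CPM with Ezh2-Y726D (SD, n = 3 each). It fell by 0.12 on the log2 scale with an adjusted p of 0.0423 by edgeR, a call that was lost in 5 of the 6 fits that left out 1 library. The insulin receptor gene Insr had a log2 fold change of 0.07 and an adjusted p of 0.245. Igfbp1, Igfals and Igfbpl1 were too low to be tested.

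Among the 8 adaptors that link the receptor to its branches, 4 were higher and none lower, where 13.9% and 13.6% of all genes were. Of these 4, Irs4 and Grb10 lost their calls when single libraries were left out. Irs1, the first insulin receptor substrate, was at 80.3, 78.2 and 87.7 CPM with GFP and at 100.6, 99.9 and 94.8 CPM with Ezh2-Y726D. Every Ezh2-Y726D library was above every GFP library, with a log2 fold change of 0.27 ± 0.048 (SE) and an adjusted p of 5.26e-05 by edgeR. Of the exonic bases of Irs1, 30.9% overlap Gm9747 on the opposite strand, so that its counts are uncertain. Irs4 was the DEG of the group, with a log2 fold change of 1.36 ± 0.39 (SE) and an adjusted p of 0.00907, but it had only 10, 4 and 1 counts with GFP and 25, 15 and 31 with Ezh2-Y726D. Its call was lost without GFP replicate 1, at an adjusted p of 0.127, and with DESeq2, at 0.129. Grb10 and Grb14, which bind activated IGF and insulin receptors and dampen them, had log2 fold changes of 0.13 and 0.48, with adjusted p-values of 0.0217 and 0.000639. The call of Grb10 was lost in 4 of the 6 fits with 1 library left out, where its adjusted p reached 0.109, and that of Grb14 in none. Irs2, Shc1, Grb2 and Gab1 did not pass the test.

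In the PI3K, Akt and mTOR branch, 4 of 24 genes were higher, 4 were lower and 16 did not pass the test, which is near the 13.9% and 13.6% of all genes. Pik3r3, a regulatory subunit of PI3K, was at 73.3 ± 4.41 CPM with GFP and 87.0 ± 2.47 CPM with Ezh2-Y726D, a log2 fold change of 0.23 with an adjusted p of 0.00065 by edgeR. It shares 24.3% of its exonic bases with Gm49337, so that its counts are uncertain. Mtor, a kinase of the branch, had a log2 fold change of 0.17, with an adjusted p of 0.00167. The lower genes were Trib3, which binds and inhibits Akt, and Eif4ebp1, Rps6 and Pik3r1. Trib3 was a DEG, at 4.88, 4.64 and 5.97 CPM with GFP and 3.5, 2.7 and 3.39 CPM with Ezh2-Y726D. It fell by 0.64 on the log2 scale with an adjusted p of 0.00277. Without GFP replicate 3 or Ezh2-Y726D replicate 2 the log2 fold change was -0.57 and -0.55, which falls short of the fold change of a DEG. Akt1 and Akt2 did not pass the test.

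Of the 9 genes of the Ras and MAPK branch, 1 passed the test, relative to 27.5% of all genes. This was Hras, with a log2 fold change of 0.18 and an adjusted p of 0.0298 by edgeR. Its call was lost without GFP replicate 1 or 3 or Ezh2-Y726D replicate 2, with adjusted p-values of 0.188, 0.079 and 0.126. None of the 3 tested genes of Igf2 mRNA-binding proteins and of the Igf2 locus passed, and Igf2bp2 had the lowest adjusted p of them, 0.0644, with a log2 fold change of -0.35.

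For each member that passed the test, the genes whose log2 level followed it most closely over the 6 libraries were looked up among 12251 genes with a mean of at least 5 CPM. This is a description of 6 libraries that share their scaling. The members were picked because they differed between the groups, and r was taken over both groups together. Any gene with a clear group difference in the same direction thus gets a high r. A high r here need not mean that genes vary together within a group. The closest to Igf1 were Setd7 (Pearson's r = 0.9982) and Rnf217 (r = 0.994), and 181 genes had an r over 0.95. For Igfbp7 they were the ribosomal protein genes Rps9 (r = 0.9992) and Rpl37a (r = 0.9988), and 751 genes had an r over 0.95. For Igfbp3 they were Piezo1 (r = 0.9943) and Arpc4 (r = 0.9888), and 50 genes had an r over 0.95. Rps9 had a log2 fold change of -0.41 and Setd7 one of 0.17, and Piezo1, like Igfbp3, was lowest among the GFP libraries in replicate 3.

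Markers of several cell types differed between the groups alongside these genes. The 7 pericyte markers summed to 221 to 242 CPM with GFP and 172 to 186 CPM with Ezh2-Y726D, with 5 lower and none higher. The fibroblast and meningeal markers summed to 105 to 125 and 73.4 to 81.9 CPM, with 5 of 6 tested lower. Of 8 endothelial markers 2 were lower, and their sum was 956 to 1018 CPM with GFP and 901 to 965 CPM with Ezh2-Y726D. Most of that sum came from Kdr, at 744 to 783 CPM with GFP, and Flt1, at 193 to 210 CPM, and Pecam1, Cldn5, Cdh5, Tie1, Tek and Emcn were each under 9 CPM in all libraries. The 9 markers of activated phagocytes summed to 328 to 369 and 127 to 137 CPM, with 7 lower and 1 higher, and 8 homeostatic microglia markers to 433 to 485 and 343 to 403 CPM, with 3 lower and 2 higher. All 6 T cell markers were lower, with sums of 93.8 to 97.8 and 54.6 to 61.5 CPM.

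Among the neuronal and glial lists, the amacrine cell markers summed to 913 to 976 CPM with GFP and 1341 to 1386 CPM with Ezh2-Y726D, with 7 of 9 tested higher and 1 lower, and the bipolar cell markers to 1032 to 1044 and 837 to 861 CPM, with 7 of 8 lower and 1 higher. Of 12 RGC markers 2 were higher and 1 lower, Isl1, which is also in the bipolar list. Of 8 photoreceptor markers 2 were higher and 4 lower, but their sum, 5007 to 5132 CPM with GFP, was higher with Ezh2-Y726D at 5476 to 5624 CPM. Of 4 tested astrocyte markers 2 were lower, and the list summed to 721 to 782 CPM with GFP and 674 to 714 CPM with Ezh2-Y726D. Most of that sum came from Aqp4, at 460 to 504 CPM with GFP, which is also in the Müller glia list and did not pass the test. The astrocyte marker Pax2 was under 1 CPM in all libraries. Of the Müller glia markers 2 were higher and 1 lower, and the summed levels, given above, overlapped. The pigment epithelium list was nearly absent, with 3 of 6 markers under 1 CPM in all libraries, and none of the 4 tested passed. No defining marker of any list was at 0 in all libraries. The part of these cell types in the values of Igf1, Igfbp3, Igfbp7, Pappa2 and Stc2 was not tested.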

How the data were processed

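Symbols and coordinates of the 9 IGF axis genes were taken by Ensembl identifier from a gene name table and GENCODE vM21 on GRCm38. Of 32371 identifiers, 32325 had a symbol and 32342 were found in GENCODE vM21, which may not be the authors' annotation. The authors deposited whole-number read counts per gene without normalization. Per the submitters' processing notes, STAR 2.7.0d and GRCm38 were used. The counting tool, the annotation and the strand setting are not given in the sources used here. The labels give no more than a stranded total RNA kit.

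From the counts, CPM of the TMM-scaled library were computed. All 6 libraries were fitted by quasi-likelihood in edgeR (4.0.16, R 4.3.3) with the group as the only term, after filterByExpr (10 counts, total of 15). P-values are two-sided and adjusted by Benjamini and Hochberg's method over all 18138 genes left. Standard errors were derived from the log2 fold change and the root of the test's F, and the 95% intervals use the same degrees of freedom as the test. TMM factors were 0.647 to 1.31. CPM per kb used the union of a gene's exons. Total counts set the precision, which is lowest in GFP replicates 2 and 3. Alternatives were RLE size factors, library totals with and without CT010467.1, DESeq2 1.42.0, the replicate block, filters of none or of 10 counts in each library, leaving out each library, leaving out both GFP libraries rich in rRNA, thinning to the shallowest library, a fold change over 2, and shares without division by length. The test was also run on simulated counts. These had the same dispersion for all genes and changes larger than those of the members, so that run does not check the calls of the members.

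The named genes are all members, Ezh2, the DEGs and the gene with the lowest adjusted p in each role of a wider pathway list, and the 2 genes closest to each called member by Pearson's r on log2(CPM + 1). Stc2, CT010467.1 and other genes of the wider list that carry values were named after their values were seen. The members, lists, tests and alternatives were chosen with earlier results of these data known. Promoter windows are RefSeq's, on GRCm38.p6. All columns of the table were used. Some items of the wider list are not reported here.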

Additional observations from a re-analysis of the deposited data

How the results depend on the processing

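With library totals in place of TMM factors, the median over all genes moved to a log2 fold change of 0.49, only 46 genes were higher and 19 lower, 0 members and 1 gene of the wider list passed, and values must be read relative to that shift. Under it Igf1 was at 0.69, Igfbp7 at -0.05 and Igfbp3 at 0.12, which are 0.20, -0.54 and -0.37 relative to the median, and the signs of Igfbp4 (0.45), Igf2r (0.38) and Igf2bp2 (0.13) turned, which relative to the median are -0.04, -0.11 and -0.36. With DESeq2, 1 member, Igfbp7, and 7 genes of the wider list passed, with Igf1 at 0.19 and Igfbp3 at -0.35. After thinning to the shallowest library, 1 member and 10 genes passed, with Igf1 at 0.18 (adjusted p = 0.17), Igfbp3 at -0.33 (0.317), Igfbp7 at -0.39 (0.00381) and Igf1r at -0.01. The cause was not tested beyond the fewer counts.

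Leaving out 1 library at a time, 1 to 3 members and 9 to 14 genes of the wider list passed, relative to 3 and 16, with the fewest members without GFP replicate 1 or Ezh2-Y726D replicate 3 and the fewest genes without GFP replicate 1 or Ezh2-Y726D replicate 2. The log2 fold change ran from 0.17 to 0.22 for Igf1, from -0.45 to -0.26 for Igfbp3, from 0.08 to 0.48 for Igf2, from -0.01 to 0.07 for Igf1r, from 0.0 to 0.20 for Igfbp2, from -0.10 to 0.03 for Igfbp4 and from -0.04 to 0.07 for Igfbp5. Of the genes without a call, Igfbp5 also turned to -0.01 with library totals without the rRNA gene. Leaving out both GFP libraries rich in rRNA, Igf1 stayed at 0.19 and lost its call, Igfbp2 turned to -0.04, 2 members passed, and the remaining GFP library was assumed to vary like the others. Over the alternatives run for each, the adjusted p ran from 0.0125 to 0.42 for Igf1, from 0.0124 to 0.811 for Igfbp3 and from 5.52e-11 to 0.931 for Igfbp7, whose call was lost with library totals only. No member was a DEG under any alternative, and Pappa2 kept its call in all 15. Irs4 and Igf2 have no value with at least 10 counts in every library or after thinning.

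Same-numbered libraries of the groups had correlations of 0.136, 0.051 and 0.0391 of their deviations from the group means, so the numbers were not taken as pairs, although each library correlated best with its own number. With the replicate block, 2 members passed, Igfbp3 (-0.34, adjusted p = 0.0676) did not, and 19 genes of the wider list did.

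The share of Igfbp7 in the IGFBP pool differed between Ezh2-Y726D and GFP by -9.34 percentage points, and by -5.46 without division by exon length.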
